A study of Mus musculus with 5 samples.

Results

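A set of 10 genes of the integrated stress response were followed in GL261 cells, a mouse glioma line, after sodium propionate or sodium chloride. The 10 genes were Atf4, Atf3, Atf5, Ddit3, Trib3, Chac1, Asns, Sesn2, Ddit4 and Cebpb, taken by name from 55414 genes with a reference name or ID, and all 10 were among the 14331 genes with a mean TPM (abundance per transcript length, scaled so that each library sums to 1000000) of at least 1 that were tested. The series compared 3 sodium chloride libraries (replicates 1, 2 and 3) with 2 sodium propionate libraries (replicates 2 and 3), each made from total RNA with a stranded kit after 24 h at a labelled 1 uM of either salt. Propionate belongs to the short-chain fatty acids that bacteria of the gut release, and sodium chloride gave control cells the same cation. Both groups were cultures of this single line, and the labels name no genetic change or other agent in either. The labels do not say whether libraries of a group came from separate cultures, so p-values measure the spread between these libraries, which may be technical.

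In the integrated stress response, the kinases PERK, GCN2, PKR and HRI phosphorylate the translation factor eIF2, which lowers general protein synthesis while the Atf4 messenger is translated more. ATF4 protein then binds DNA with C/EBP partners and turns on genes for amino acid supply, redox balance and, when stress lasts, cell death. Atf4 activity is set largely at translation and protein stability, which messenger levels do not measure.

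ATF4 and C/EBP factors bind together to composite elements of the form TGATGNAA. The second motif searched, TTGCATCA, is the opposite strand of the form with C in place of N, so every match to it is also a match to the first. RefSeq promoter windows (GRCm38.p6, 250 bases before to 50 after each start) were found for 10 of 10 genes, 11 windows in all. TGATGNAA was present on either strand in windows of 4 genes, Atf3, Chac1, Asns and Trib3, and in 1304 of 32851 windows of all genes (3.97%). TTGCATCA was present in the windows of Atf3 and Chac1 and in 0.895% of all windows. The matches are shown because they separate a few of the 10 genes by sequence within these windows. Sequence outside the windows was not searched, so genes without a match may hold one elsewhere. The 8 matching letters are in capitals, and each gene's coding strand is printed 5′ to 3′.
Atf3, chr1:191183406-191183473, minus strand, match beginning 110 bases before the start: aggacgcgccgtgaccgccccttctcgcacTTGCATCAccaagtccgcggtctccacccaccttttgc
Chac1, chr2:119351019-119351086, plus strand, match beginning 193 bases before the start: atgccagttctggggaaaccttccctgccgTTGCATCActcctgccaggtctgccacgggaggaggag
Asns, chr6:7693215-7693242, minus strand, match beginning 23 bases before the start: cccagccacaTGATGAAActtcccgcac
Trib3, chr2:152344039-152344046, minus strand, match at base 15 after the start: TTACATCA
A match describes letters and does not show that a factor bound there. The RefSeq starts are not always those of the transcripts in the deposited files. There the main Asns transcript starts at 7693254, so its match lies after that start. The main Trib3 transcript starts at 152344032, so its match lies before that start.

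None of the 10 genes passed the threshold between propionate and chloride (limma on log2(TPM + 1), two-sided, Benjamini-Hochberg adjusted p under 0.05 over all tested genes), where 1.20% of tested genes did (172 of 14331, 0.900% higher and 0.300% lower). These 129 genes called higher and 43 called lower became 596 and 360 with TPM rescaled over protein-coding genes (4.93% and 2.98% of the 12100 tested there). An unadjusted p under 0.05 was found for 3 of the 10, Atf3, Atf5 and Chac1, all lower with propionate, where 16.1% of tested genes had such a p and 8.60% were lower at that level. With limma's voom on aligned bases 1 of the 10 passed, Atf3, where 5.53% of tested genes did. An unadjusted p under 0.05 by voom was found for 4, Atf3, Atf4, Atf5 and Chac1, where 22.8% of tested genes had one. All 4 were lower by voom, with Atf4 at -0.21 and an adjusted p of 0.125. That Atf4 value includes the bases of a transcript shared with Mief1, described below. In Atf3, Atf5 and Chac1 both propionate libraries lay below all 3 chloride libraries, as in 19.6% of tested genes, and in Ddit3 both lay above, as in 14.6%. In the other 6 the groups overlapped, where 34.2% of tested genes had no overlap. The median change of the 10 genes was -0.07 on the log2(TPM + 1) scale, against -0.03 over all tested genes, and 6 of the 10 lay below 0, where 55.7% of tested genes did.

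**Figure D1:**
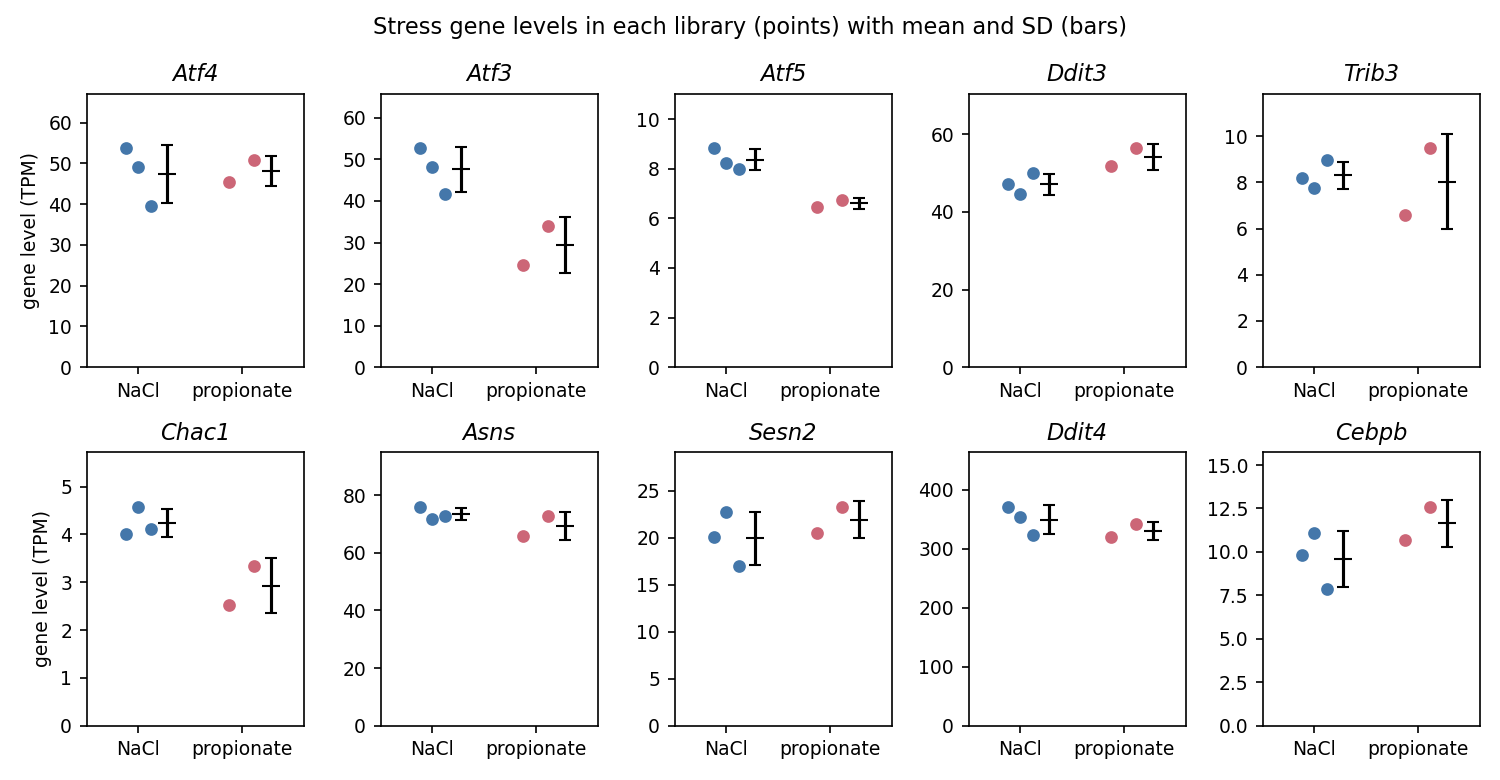
Gene level in TPM (vertical axis, from 0) of each of the 10 stress genes in the 3 sodium chloride (NaCl) and 2 sodium propionate libraries, points being libraries and bars the mean and SD. Both propionate points lie below all chloride points for Atf3, Atf5 and Chac1, lie above them for Ddit3, and the groups overlap for the other 6 genes.

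The genes differed far more from each other than between treatments. Per length, Ddit4 was highest, from 319 to 371 TPM over the 5 libraries, above 98.4% of tested genes. Asns followed at 65.9 to 76.0 TPM, and its range met neither that of Ddit4 nor that of Ddit3. Ddit3, Atf4 and Atf3 came next, and the ranges of neighbours among these 3 overlapped (44.5 to 56.4, 39.6 to 53.7 and 24.6 to 52.7 TPM). Sesn2 stood apart below them at 17.0 to 23.3 TPM. Cebpb, Trib3 and Atf5 overlapped in turn between 6.45 and 12.6 TPM. Chac1 was lowest at 2.52 to 4.58 TPM, above 22.3% of tested genes.

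Atf4 encodes the transcription factor at the centre of the response. Its summed level was 53.7, 49.0 and 39.6 TPM in chloride replicates 1, 2 and 3 and 45.5 and 50.8 TPM in propionate replicates 2 and 3. Both propionate values fell inside the chloride range. The log2 change was 0.03 ± 0.14 (SE), with a 95% interval from -0.29 to 0.35 and an adjusted p of 0.940 by limma, so the data could not tell a change within that interval from none.

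The Atf4 level depended on 1 assembled transcript that runs from Mief1, a mitochondrial fission gene upstream on chromosome 15, through the whole of Atf4 (chr15:80234030-80259353, plus strand, 9 exons, 10961 bases). StringTie, the authors' assembler, gave it 28.4, 31.4 and 33.9 TPM in chloride and 19.8 and 26.3 TPM in propionate, 43.5% to 85.7% of the Atf4 sum. The spliced reference transcript of Atf4 took 21.2, 10.7 and 0 TPM in chloride and 21.8 and 20 TPM in propionate. Where the assembled transcript was high, the reference transcript was low, and in chloride replicate 3 the reference transcript was listed at 0. Without the joint transcript the Atf4 change was 0.82, with an adjusted p of 0.605 by limma on reference transcripts alone. The change of 0.82 came with reference levels that spread widely over the chloride libraries.

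Coverage of the exons, summed over all transcripts of the strand, depends less on how reads were shared among transcripts. Over the annotated Atf4 exons, depth in TPM units was 63.7, 66.8 and 61.4 in chloride and 52.1 and 61.6 in propionate, and propionate replicate 3 fell inside the chloride range. Those exons together cover every base of chr15:80255184-80257541 (2358 bases), so the introns of the spliced transcript are included. They also stop before that transcript's last exon ends, at 80259353. Atf4 then had a difference of -0.17 ± 0.10 on the log2 scale, with an adjusted p of 0.444 by limma, and 0 of the 10 genes passed by this measure, where 2.32% of tested genes did. At an unadjusted p under 0.05 by exon depth stood 3 of the 10, where 17.2% of tested genes did. The middle exon (chr15:80256207-80256521) had 195, 214 and 196 in chloride and 160 and 190 in propionate. The first exon had 14.2 to 28.2, and there the groups overlapped. The last exon had 78.4, 81.4 and 79.1 in chloride and 62.9 and 76.7 in propionate. The short middle exon was thus covered several times as deeply as the transcripts' TPM. Both the middle and the last exon were lower in both propionate libraries, without a test or a share over the exons of other genes. Mief1 by exon depth lay between 11.8 and 12.4 in chloride and at 9.86 and 11.6 in propionate, far below Atf4, with a log2 change of -0.16 ± 0.10.

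**Figure D2:**
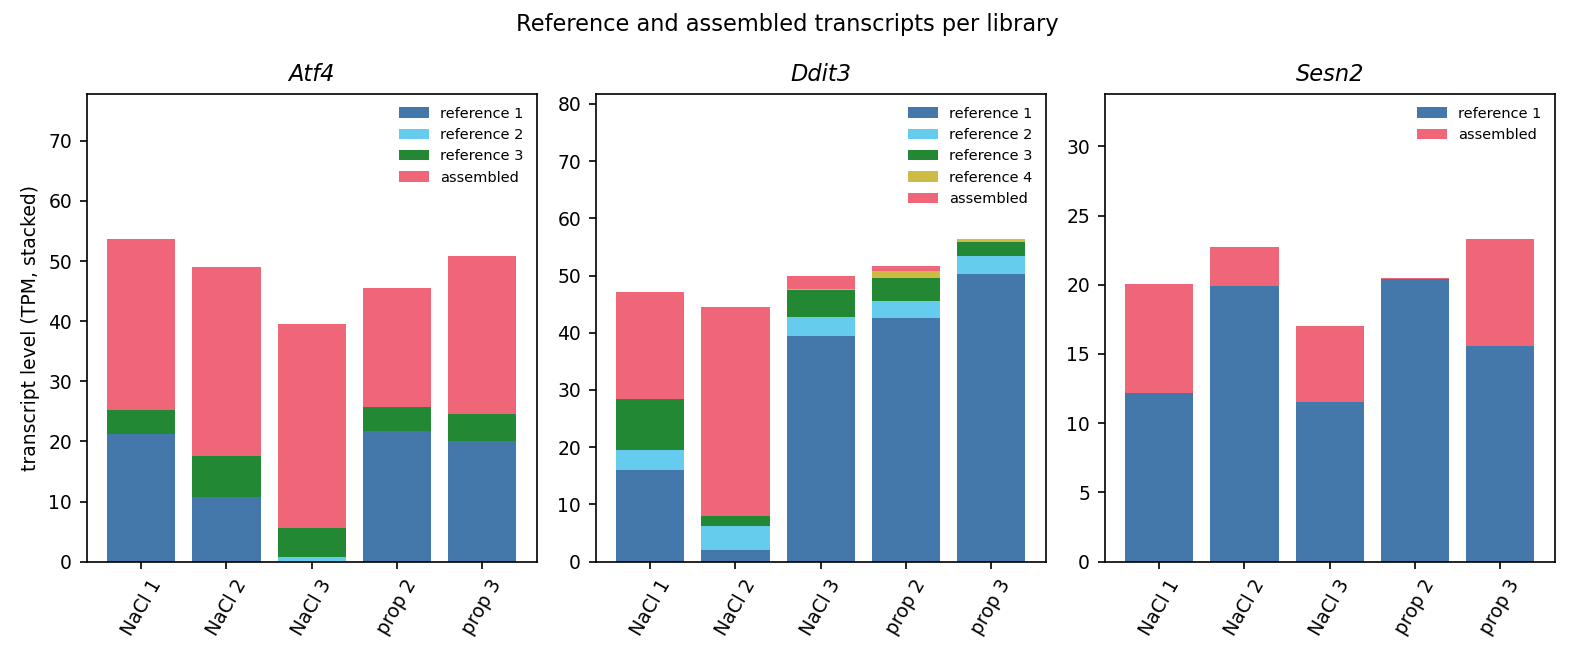
Transcript levels in TPM (vertical axis, stacked, from 0) of Atf4, Ddit3 and Sesn2 in each library (NaCl, sodium chloride; prop, sodium propionate), blue, green and yellow shades being reference transcripts and red the assembled transcript. The red share of Atf4 runs from 43.5% to 85.7%, and that of Ddit3 from 0.187% to 81.9%.

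Atf3, a CREB/ATF family factor induced by ATF4 and by other stress and growth signals, had the largest change of the 10 genes on the gene sums, though not where the joint Atf4 transcript was left out (Atf4 at 0.82) or on reference transcripts alone (Ddit3 at 1.22). Its level was 52.7, 48.3 and 41.8 TPM in chloride and 24.6 and 34.1 TPM in propionate. Both propionate libraries were below every chloride library, and propionate replicate 2 was the lower of the pair. The group means were 47.6 ± 5.47 (SD, n = 3) and 29.3 ± 6.74 TPM (SD, n = 2), 38.4% lower with propionate. The log2 change was -0.69 ± 0.16, with a 95% interval from -1.06 to -0.32, an unadjusted p of 0.00279 and an adjusted p of 0.0961 by limma. That missed the threshold, and the adjusted p of Atf3 was 0.0320 with voom, 0.0483 with median-of-ratios scaling and 0.0183 with TPM rescaled over protein-coding genes. Almost all of it came from 1 reference transcript, which held 94.1% to 100% of the gene in each library. Exon depth gave the same change, -0.69 ± 0.15. Without propionate replicate 2 the change was -0.46, and without propionate replicate 3 it was -0.92.

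Atf5, a close relative of Atf4 that is also translated under eIF2 phosphorylation and linked to the mitochondrial stress response, was low in all libraries. It had 8.83, 8.25 and 8 TPM in chloride and 6.45 and 6.76 TPM in propionate. Both propionate libraries lay below the chloride range, 21% lower in the mean. This gave a log2 change of -0.30 ± 0.11, with an unadjusted p of 0.0266 and an adjusted p of 0.242 by limma. Its second transcript, which starts further downstream, held 2.46% to 7.62% of the gene in chloride, and with propionate 51.6% (replicate 2) and 14.8% (replicate 3). The 2 propionate libraries differed more from each other in that share than the chloride libraries did. Atf5 exons overlap Il4i1 and Nup62 on the other strand, and the assembler's command line had no strand option.

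Cebpb encodes C/EBP-beta, a partner of ATF4 on composite elements. It was at 9.82, 11.1 and 7.86 TPM in chloride and 10.7 and 12.6 TPM in propionate. Chloride replicate 2 was above propionate replicate 2, so the groups overlapped. Cebpb had a log2 change of 0.26 ± 0.15, with an adjusted p of 0.453 by limma. It was 0.14 without chloride replicate 3, 0.15 without propionate replicate 3 and 0.37 without propionate replicate 2. Cebpb shares exon sequence with Tmem189 on the other strand.

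Ddit3 encodes CHOP, a C/EBP family factor linked to cell death in lasting stress. The gene sum was 47.1, 44.5 and 49.9 TPM in chloride and 51.7 and 56.4 TPM in propionate. Both propionate libraries lay above the chloride range by a small margin. Ddit3 had a log2 change of 0.19 ± 0.09, with a 95% interval from -0.03 to 0.41 and an adjusted p of 0.371 by limma. By exon depth the groups overlapped, at 27.4, 29.1 and 25.9 against 26.3 and 29.1 in TPM units, and the change was 0.01 ± 0.10. With voom it was 0.02.

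The Ddit3 transcripts were divided unevenly. An assembled transcript with 1 more exon (chr10:127289956-127296288, plus strand) had 18.7, 36.4 and 2.12 TPM in chloride and 0.825 and 0.105 TPM in propionate, while the main reference transcript had 16.1, 2.01 and 39.4 TPM against 42.5 and 50.3 TPM. Chloride replicate 3 resembled the propionate libraries in this division, not the other two chloride libraries. On reference transcripts alone Ddit3 had a change of 1.22, with an adjusted p of 0.535 by limma. A reading of Ddit3 that leaves out assembled transcripts therefore gave a far larger change than the gene sum (0.19) or exon depth (0.01), without passing the test. Ddit3 exons overlap Mars, a tRNA synthetase gene, and Gm4189 on the other strand.

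Trib3, a pseudokinase induced by ATF4 and CHOP that restrains both, was at 8.19, 7.76 and 8.95 TPM in chloride. Propionate replicate 2 was lowest of all 5 libraries at 6.59 TPM, and propionate replicate 3 was highest at 9.48 TPM. The chloride libraries all lay between them, and the log2 change was -0.06 ± 0.16, with an adjusted p of 0.894 by limma. Without propionate replicate 2 its sign turned, to 0.17.

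Chac1, an ATF4 and ATF3 target that breaks down glutathione, had 4.02, 4.58 and 4.12 TPM in chloride and 2.52 and 3.34 TPM in propionate. Both propionate libraries were below all chloride libraries, by 30.9% in the mean. Chac1 had a log2 change of -0.42 ± 0.15, with a 95% interval from -0.77 to -0.07, an unadjusted p of 0.0241 and an adjusted p of 0.231 by limma. Without propionate replicate 2 it was -0.27. Chac1 has a single transcript in the files, so no reads were shared between isoforms. Chac1 and Atf3, the genes whose promoter windows hold TTGCATCA, both lay lower without overlap, as did 19.6% of tested genes. In Asns and Trib3, which hold other forms of TGATGNAA, the groups overlapped, and a link of motif and change was not tested. Over the 57 tested genes with that motif 0 were called higher and 1 lower by limma, with a median change of -0.04, and over the 245 with TGATGNAA 2 were called higher and 1 lower, with a median of -0.03.

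**Figure D3:**
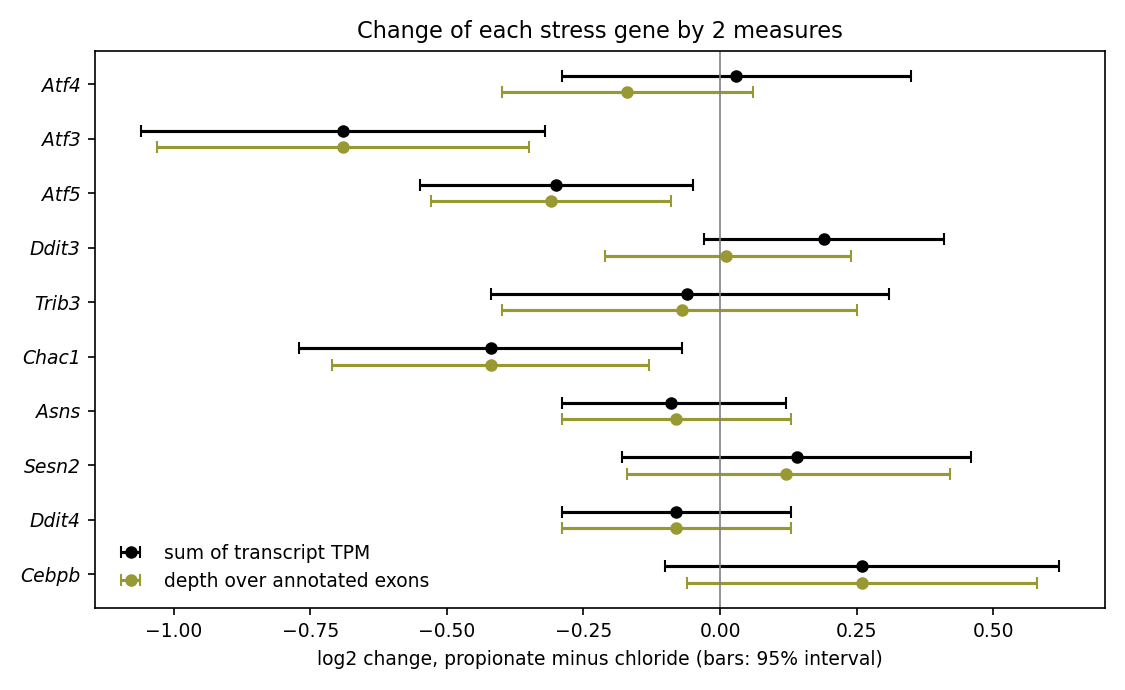
Log2 change of each stress gene, propionate minus chloride (horizontal axis), from the sum of transcript TPM (black) and from depth over annotated exons (olive), bars being 95% intervals. Both measures place Atf3 at -0.69 and Chac1 at -0.42, while Atf4 moves from 0.03 to -0.17 and Ddit3 from 0.19 to 0.01.

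Asns encodes asparagine synthetase, the textbook amino acid response target of ATF4. It had 76.0, 71.9 and 72.7 TPM in chloride and 65.9 and 72.7 TPM in propionate. Propionate replicate 3 lay within the chloride range and propionate replicate 2 below it. The log2 change was -0.09 ± 0.09, with a 95% interval from -0.29 to 0.12 and an adjusted p of 0.681 by limma, and it ran from -0.16 without propionate replicate 3 to -0.02 without propionate replicate 2. Its motif match, TGATGAAA, lies closest to the RefSeq start among those found before such a start. The main Asns transcript of the deposited files starts further upstream, so the match lies after that start.

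Sesn2 and Ddit4 encode sestrin 2 and REDD1, which lower mTORC1 activity. Sesn2 had 20.1, 22.7 and 17.0 TPM in chloride and 20.5 and 23.3 TPM in propionate, with overlap and a log2 change of 0.14 ± 0.14 (adjusted p of 0.669 by limma). Leaving out single libraries moved it from 0.04 (without chloride replicate 3) to 0.23, and reference transcripts alone gave 0.32. Its assembled transcript held 12.5% to 39.1% in chloride, and in propionate 0.599% (replicate 2) and 33.1% (replicate 3). Ddit4, which also responds to hypoxia and glucocorticoids, had 371, 353 and 323 TPM in chloride and 319 and 341 TPM in propionate. Propionate replicate 2 was just below the chloride range, and the log2 change of Ddit4 was -0.08 ± 0.09 (adjusted p of 0.717 by limma), or -0.13 to -0.03 with single libraries left out.

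The propionate libraries were not alike over the 10 genes. Measured from the chloride mean, the median of the 10 genes stood at -0.14 for propionate replicate 2 and at 0.05 for replicate 3, against -0.08 to 0.05 in the chloride libraries. Over all tested genes the same medians were -0.08 and 0.03. Atf3 stood at -0.92 and -0.46, Chac1 at -0.57 and -0.27, and Atf5 at -0.33 and -0.27, so each was lower in both, and more so in replicate 2. Trib3, at -0.29 and 0.17, was not.

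By likeness of profile over the 5 libraries, measured as the root mean square difference of centred log2(TPM + 1) values among 9120 protein-coding genes with a mean of at least 5 TPM, the nearest to Atf4 were Extl3 (0.018), Bicral (0.024) and Slc41a2 (0.025). All 3 share the low value of chloride replicate 3 in the Atf4 sum. None passed the test, which their choice by likeness to Atf4 largely fixed. By exon depth Atf4 was instead lowest in propionate replicate 2 (52.1, against 61.4 in chloride replicate 3). The nearest to Atf3 were Entpd2 (0.056), Rgcc (0.061) and Sparcl1 (0.081). Chosen by likeness to Atf3, these 3 had to be lower with propionate, so their changes and calls are not a separate result. Rgcc had 179 to 201 TPM in chloride and 101 and 132 TPM in propionate, with a change of -0.70 and an adjusted p of 0.0503 by limma. In 18 alternatives Rgcc passed 8 times, Sparcl1 7 times and Entpd2 2 times, with limma's adjusted p as low as 0.00498, 0.00585 and 0.0259 and as high as 0.204, 0.272 and 0.304. Among the 10 genes Asns and Ddit4 were the nearest pair, at 0.053.

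The wider pathway was read from 9 lists that hold 129 tested genes outside the 10, each counted once. By limma 0 passed in either direction. An unadjusted p under 0.05 was found for 7 with higher and 19 with lower levels, against 7.53% and 8.60% of all tested genes, and with voom 3 were called higher and 3 lower (3.84% and 1.69% of tested genes). With TPM rescaled over protein-coding genes 4 of the 129 were called higher and 10 lower, against 4.93% and 2.98% of all genes tested there. In 43 of the 129 both propionate libraries lay below the chloride range and in 9 above, against 19.6% and 14.6% of all tested genes. The median over the 129 was -0.10, against -0.03 over all tested genes, and 85 lay below 0, where 55.7% of tested genes did. In each of the 9 lists 0 genes passed by limma.

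Among the 11 eIF2 kinases and their regulators the median change was -0.11. Impact, an inhibitor of GCN2, had 60.8 to 63.7 TPM in chloride and 51.4 and 51.7 TPM in propionate (change -0.27, adjusted p 0.174 by limma). Abce1, a ribosome recycling factor, had a change of -0.24. The kinases themselves, named after their values were seen, had changes of -0.11 for Eif2ak1 (HRI), -0.19 for Eif2ak2 (PKR), 0.04 for Eif2ak3 (PERK) and 0.15 for Eif2ak4 (GCN2), with overlap in each. Among the 14 genes of eIF2, eIF2B and the eIF2 phosphatases the median was also -0.11, and the smallest p belonged to Eif5, which assists start codon choice (-0.28), and Eif2b1, a subunit of the exchange factor (-0.24). Without propionate replicate 2 these were -0.18 and -0.14.

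Among 18 tested C/EBP and CREB/ATF partners the median was -0.02. Crebrf, a regulator of CREB3 proteins, had 46.5 to 54.1 TPM in chloride and 35.5 and 39.0 TPM in propionate (change -0.42, adjusted p 0.113 by limma, and -0.26 by exon depth), and Atf1 had a change of -0.27. Cebpa and Cebpd, named after their values were seen, lay above the chloride range in both propionate libraries, with changes of 0.48 and 0.37 and adjusted p of 0.263 and 0.282 by limma.

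Target genes of amino acid supply are read against the 55.7% of all tested genes that lay below 0, and no test of these lists was run. Of 13 genes of amino acid and one-carbon synthesis 9 were below 0, with a median of -0.14. Mthfd1l, a mitochondrial folate enzyme, had 93.4, 89.9 and 90.8 TPM in chloride and 64.7 and 69.5 TPM in propionate (change -0.44, adjusted p 0.0572 by limma), and Psat1, of serine synthesis, had a change of -0.38 (adjusted p 0.0961 by limma). Mthfd1l passed in 7 of 18 alternatives, with adjusted p from 0.00701 to 0.251 over all of them by limma, and Psat1 passed in 3, with adjusted p from 0.0168 to 0.323. Cbs, an enzyme of cysteine synthesis named after its values were seen, went the other way from a low level, 0.386 to 0.743 TPM in chloride against 2.15 and 1.34 TPM in propionate (change 0.82, adjusted p 0.148 by limma). Of 10 tested amino acid transporters 9 were below 0, with a median of -0.14, led by Slc6a9 for glycine (-0.40) and Slc7a1 for cationic amino acids (-0.36). Of 12 aminoacyl-tRNA synthetases 11 were below 0 and 9 lay below the chloride range in both propionate libraries, where 19.6% of tested genes did. Their median was -0.22, with changes of -0.32 for Cars and -0.25 for Aars and adjusted p of 0.211 and 0.244 by limma. On reference transcripts alone Aars was at -0.53.

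The 23 tested secreted and other stress targets had a median of -0.00. Trib2, a relative of Trib3, had 2.29 to 2.60 TPM in chloride and 4.22 and 6.32 TPM in propionate (change 0.86, adjusted p 0.0735 by limma), and Vegfa, an angiogenic factor, had a change of -0.44. On reference transcripts alone Trib2 was at 0.32 and Vegfa at -0.16, while by exon depth they were at 0.83 and -0.28. Without propionate replicate 2 Vegfa was at -0.27. Trib2 passed in 4 of 17 alternatives, not being tested at a minimum of 5 TPM, and Vegfa in 1 of 18. Limma's adjusted p ran from 0.0168 to 0.718 for Trib2 and from 0.0329 to 0.756 for Vegfa. Among 21 genes of sestrin, REDD1 and mTORC1 control the median was -0.03, with Castor1, the arginine sensor, at 0.43 and Nprl3, a subunit of the GATOR1 complex, at -0.32 (-0.19 by exon depth and -0.51 on reference transcripts alone). Among 8 genes of ATF4 and C/EBP protein turnover the median was -0.01. Btrc, an F-box protein that directs ATF4 to degradation, had 15 to 16.5 TPM in chloride and 11.3 and 11.6 TPM in propionate (change -0.42, adjusted p 0.0975 by limma), and it passed in 2 of 18 alternatives. The groups overlapped for its relative Fbxw11 (0.14, and 0.04 without propionate replicate 3) and for Fbxw7, another F-box protein of the list named after its values were seen (0.01).

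**Figure D4:**
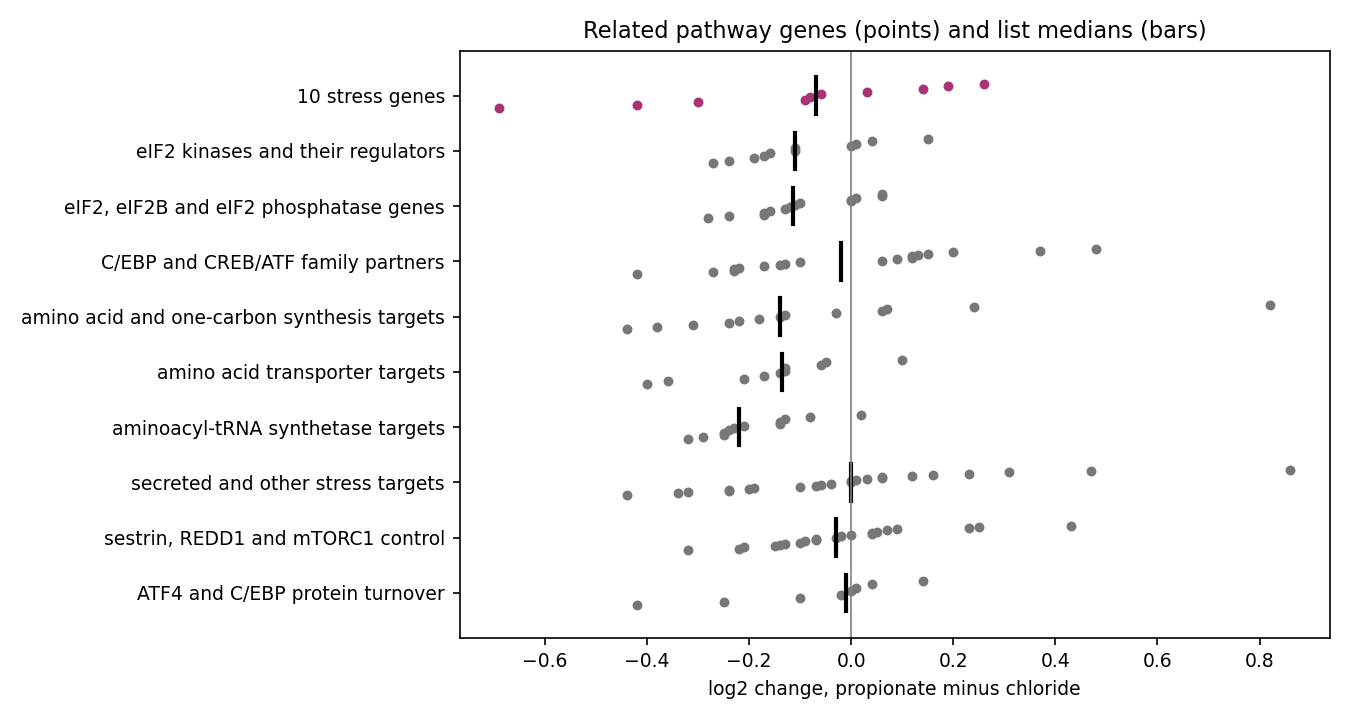
Log2 change of each tested gene, propionate minus chloride (horizontal axis), in the 10 stress genes (purple) and 9 pathway lists (grey), black bars being list medians. List medians run from -0.22 for aminoacyl-tRNA synthetases to -0.00 for secreted and other stress targets, and that of the 10 genes is -0.07.

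Deposited transcripts covered 6.53 to 7.03 Gb of aligned bases per library, and 1 TPM stood for a mean coverage of 4.73 to 4.99. Of 9 marker genes of the glial line 8 were tested, with Sox2 at 61.4 to 85.8 TPM, and Olig2 stayed under the minimum at 0.357 to 0.904 TPM. Of the 8, 2 rose, Pdgfra and Fabp7, where 0.900% of tested genes did. S100b lay lower without overlap, at 194 to 208 TPM in chloride and 147 and 167 TPM in propionate (change -0.36, adjusted p 0.115 by limma). Markers of other cell types were summed over each list. In chloride and propionate these sums were 0 to 0.414 and 0.491 to 1.17 TPM for 7 lymphocyte markers, 8.68 to 10.2 and 12.6 to 14.6 TPM for 9 myeloid markers (2 at 0 throughout, mostly Cd68), 16.7 to 18.1 and 20.2 to 22.3 TPM for 7 endothelial and pericyte markers (2 at 0, mostly Cspg4), 177 to 191 and 193 to 228 TPM for 6 neuronal markers (2 at 0, mostly Tubb3), and 0.639 to 1.08 and 1.93 to 2.65 TPM for 5 fibroblast markers (1 at 0, mostly Pdgfrb). All 5 sums were higher with propionate, and their part in the stress gene values was not tested. Cd68, Cspg4, Tubb3 and Pdgfrb each lay higher without overlap, as did 14.6% of tested genes. No lymphocyte marker reached the mean of 1 TPM needed for testing. In bulk RNA, fewer cells that hold a messenger and less of it per cell cannot be told apart.

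**Figure D5:**
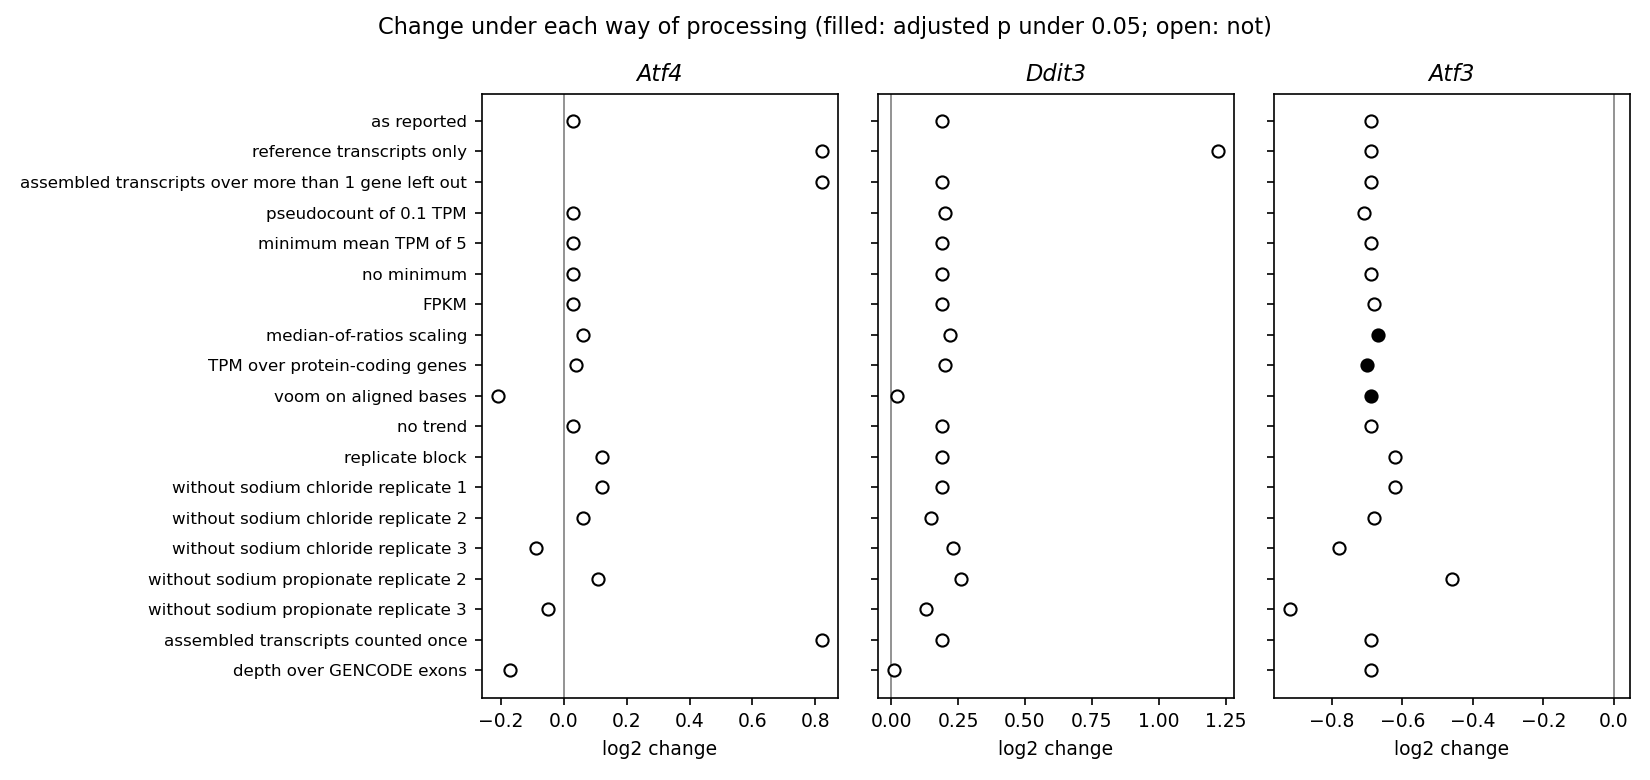
Log2 change of Atf4, Ddit3 and Atf3, propionate minus chloride (horizontal axis), as reported and under 18 other ways of processing or subsets of libraries (rows), filled points having an adjusted p under 0.05. Atf4 lies on both sides of 0, from -0.21 to 0.82, Ddit3 from 0.01 to 1.22, and Atf3 from -0.92 to -0.46 with 3 filled points.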

How the data were processed

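The 5 files hold StringTie output, 1 file per library. Per the submitters' processing notes, bcl2fastq, fastp, HISAT2 and StringTie were used with the mm10 build, and per the file headers StringTie 2.1.1 re-estimated a merged annotation of 157895 transcripts (142480 Ensembl, 15415 assembled) in each library without a strand option. The authors deposited TPM, FPKM and coverage per transcript and coverage per exon. These are not counts, so read depth is known only as coverage.

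Gene TPM was the sum over a gene's reference transcripts and the assembled transcripts of its locus and strand that overlap its exons, an assembled transcript counting in every gene it overlaps. That wording was settled before any fit, but after the values of single libraries, the Atf4 and Mief1 transcript among them, had been seen under another reading, in which it counts once in the gene of most overlap. Ddit3 has 2 Ensembl IDs, which were summed. Changes are on the log2(TPM + 1) scale, which understates those of low genes. limma 3.58.1 (R 4.3.3, eBayes with trend) was fitted to group alone over genes with a mean of at least 1 TPM. A run on simulated data drew its values from that fitted model, so it could not show errors from reads shared among transcripts. Tables were made with Python 3.11.15, pandas 2.3.3, numpy 2.4.6 and matplotlib 3.10.9. For exon depth, coverage over GENCODE M21 exons was divided by the coverage at 1 TPM, giving log2 changes on the same scale. Voom took aligned bases over 100 as estimated reads.

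The 10 genes, the lists and the promoter motifs were chosen with earlier results of these data known. Genes named are all 10, the 2 of smallest p in each list (none having passed), and the 3 nearest in profile to Atf4 and to Atf3, others being marked as chosen after their values were seen. The alternatives were 16 ways of processing or subsets, and 2 added after seeing the data (assembled transcripts counted once, exon depth). The first propionate replicate is not analysed here. No 2 libraries held the same values: within a group, log2 differences had an SD of 0.356 to 0.380.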

Additional observations from a re-analysis of the deposited data

How the results depend on the processing

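With 5 libraries, no count of reads and shared transcripts, small changes could not be resolved. The number of the 10 genes that passed was 0 in 15 of 18 alternatives, and leaving out single chloride libraries gave 0. It was 1, Atf3, with voom, TPM rescaled to protein-coding genes and scaling by the median of ratios. More of all tested genes passed there too. These were 5.53% with voom, 4.93% higher and 2.98% lower with rescaled TPM, and 324 higher and 129 lower of 14333 with the median of ratios. The median change of the 10 genes was -0.08 to -0.04 in the alternatives that kept all 5 libraries and -0.14 to 0.05 when single libraries were left out, the 0.05 being without sodium propionate replicate 2. Atf4 turned to -0.21 with voom (adjusted p 0.125), -0.17 by exon depth, -0.09 without sodium chloride replicate 3 and -0.05 without sodium propionate replicate 3. The voom value gives Atf4 all 10961 bases of the transcript joint with Mief1, so it is not a measure of Atf4 alone. Trib3 turned to 0.17 without sodium propionate replicate 2. Without sodium chloride replicate 3 Extl3, Bicral and Slc41a2 turned to -0.10, -0.05 and -0.07, without sodium propionate replicate 3 Extl3 and Slc41a2 to -0.08 and -0.05, and on reference transcripts alone Slc41a2 to -0.04. Over the single libraries left out, Atf4 ran from -0.09 to 0.12, Trib3 from -0.29 to 0.17, Extl3 from -0.10 to 0.11, Bicral from -0.05 to 0.16 and Slc41a2 from -0.07 to 0.10. The cause was not tested.

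Over all tested genes, 129 higher and 43 lower became 5 and 6 on reference transcripts alone, 2 and 1 with no minimum, 81 and 16 with no trend, 324 and 129 scaled by the median of ratios, 551 and 242 with voom, 596 and 360 rescaled to protein-coding genes, 195 and 83 with FPKM, 132 and 77 at a minimum of 5 TPM, 183 and 72 counted once and 234 and 92 by exon depth. Leaving out a library gave 36 and 11 (sodium chloride replicate 1), 55 and 18 (replicate 2), 62 and 29 (replicate 3), 35 and 12 (sodium propionate replicate 2) and 7 and 10 (replicate 3). A replicate block on replicates 2 and 3 of both groups gave 142 and 62 (36 and 11 for the same 4 libraries without the block), with 0 of the 10 genes past the threshold and a median of -0.05. Deviations of same-numbered libraries correlated at -0.19 and -0.12. The 2 propionate libraries deviate from their mean as mirror images, so these values are not independent and could not decide whether the numbers pair.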
